A study of Mus musculus with 96 samples.

Results

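The mir-200 family is a set of 5 microRNA stem-loops, mir-200a, mir-200b, mir-429, mir-141 and mir-200c. They were taken from the tables by their miRBase IDs (MI0000554, MI0000243, MI0001642, MI0000166 and MI0000694), which are 5 of the 1187 IDs in the tables. The rule names the 5 IDs and uses no threshold on a measured value, although earlier results of these data were known when the family was picked. The stem-loop length implied by the ratio of count to FPKM equals the RefSeq hairpin length for all 5 IDs (90, 70, 83, 72 and 69 bases, in the order of the names above).

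A microRNA is cut from a hairpin transcript and guides a silencing complex to messenger RNAs that pair with its seed, bases 2 to 8 from its 5′ end. The family is best known as a mark of epithelial cells. There it represses Zeb1 and Zeb2, the transcription factors that silence E-cadherin, and those factors in turn repress both loci of the family. In the nervous system the family is abundant in olfactory neuron precursors.

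The guide strands of all 5 hairpins come from the 3′ arm and are shown because they explain which members share targets and which share sequencing reads. The sequences are those of RefSeq for mouse build GRCm38.p6, with the seed in capitals.
miR-200b-3p: uAAUACUGccugguaaugauga
miR-200c-3p: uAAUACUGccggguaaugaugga
miR-429-3p: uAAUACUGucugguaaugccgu
miR-200a-3p: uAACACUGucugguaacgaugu
miR-141-3p: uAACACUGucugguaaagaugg

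The first 3 strands share the seed AAUACUG and the other 2 share AACACUG, so the seeds differ by the single base C4U (miR-200a-3p first against miR-200b-3p, counted from the 5′ end). Among the 1679 mature mouse microRNAs in the RefSeq table, 3 held the first seed and 2 held the second, all of them members of the family. The seed groups cross the 2 loci. mir-200b (chr4:156055681-156055750), mir-200a (chr4:156054896-156054985) and mir-429 (chr4:156053905-156053987) lie on the minus strand of chromosome 4 within 1846 bases, inside the gene Ttll10 on the same strand and outside its exons. They also lie inside Gm13648, annotated as a processed transcript on that strand, and mir-429 overlaps an exon of Gm13648. mir-200c (chr6:124718322-124718390) and mir-141 (chr6:124717914-124717985) lie on the minus strand of chromosome 6 within 477 bases, between the genes Phb2 and Ptpn6. Both overlap the gene Gm15884, which is annotated as antisense but lies on the same strand as these 2 stem-loops. mir-141 also overlaps an exon of Gm29008 on that strand. miR-141-3p and miR-200a-3p are identical over their first 16 bases and differ at 2 positions (A17C and G22U, miR-141-3p first). In 16 libraries the estimated counts of mir-200a and mir-141 were not whole, these were the same 16 libraries for both, and their sum was whole within 0.001 in each of them. Reads that match both strands were thus shared between these 2 stem-loops, while the counts of mir-200b, mir-429 and mir-200c were whole in every library.

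Small RNA libraries came from cerebellum of female and male C57BL/6 mice killed at 6 or 10 months. The tested mice were heterozygous for a knock-in of human HTT exon 1 in the mouse Huntingtin gene (Htt), with 140 CAG repeats (Q140), 92 (Q92) or 50 (Q50). The controls were heterozygous Q20 mice, which carry the same kind of allele with 20 repeats, and wild type (WT) littermates from the Q20 line and from the Q50 line. All knock-in mice keep 1 WT Htt allele. Each genotype and age held 8 libraries, 4 female and 4 male, with the WT mice of the 2 lines as separate groups, which gives 96 libraries. No WT littermates of the Q92 and Q140 lines were sequenced here, so repeat length and line cannot be told apart for them. The bulk tissue holds many cell types, and fewer cells of a type and less RNA per cell cannot be told apart.

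Library totals ran from 5435778 to 7934044 estimated counts, so 1 count stood for 0.126 to 0.184 CPM, the count scaled to a fixed library total. Library connectivity (Z.k) compares a library with the others of its age, and 2 libraries of 6 months under the limit of -5 were left out of the tests, Q20 female replicate 2 (Z.k of -6.68, 32.2 CPM summed over the family) and Q92 male replicate 4 (Z.k of -6.1, 22.7 CPM). Tests covered the 434 stem-loops that reached 10 counts in no fewer than 8 libraries at 6 months and also at 10 months. Of the 5 members 4 passed this filter. mir-200c reached 10 counts in 6 of the 94 tested libraries and did not pass.

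The family was scarce in the cerebellum. Per length, the median over the 96 libraries was 40.8 FPKM (reads scaled by stem-loop length and library total) for mir-141, 33.6 FPKM for mir-429, 32.5 FPKM for mir-200b, 20.0 FPKM for mir-200a and 4.50 FPKM for mir-200c. The ranges of the first 4 overlapped almost fully, from 4.16 to 404 FPKM for mir-141 and from 3.51 to 184 FPKM for mir-200a. All members were measured in the same libraries, so this overlap does not settle their order. The order of the members within libraries was not tested. mir-200c, with 0 to 74.0 FPKM, was the lowest, and it had no count in 12 of the 96 libraries. The 4 tested members ranked 351 to 403 of 1187 IDs by median FPKM over the tested libraries, and mir-200c ranked 539.

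Few stem-loops varied as much between libraries. The coefficient of variation of the CPM over the 94 tested libraries was 1.28 for mir-429, 1.16 for mir-200b, 1.11 for mir-141 and 1.10 for mir-200a, against a median of 0.185 over the 434 stem-loops tested. Only 2 of the 434 exceeded mir-429 and 12 exceeded mir-200a. The summed level of the 5 members ran from 2.30 CPM in a WT male of the Q50 line at 6 months (replicate 1) to 99.4 CPM in a WT male of the Q20 line at 6 months (replicate 3), with a median of 10.2 CPM. The next highest sums were 84.4 CPM in Q50 male replicate 3, 78.9 CPM in Q20 female replicate 2 and 61.4 CPM in Q50 female replicate 2, all at 10 months. High libraries thus occurred in knock-in and WT mice and in both sexes.

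**Figure D1:**
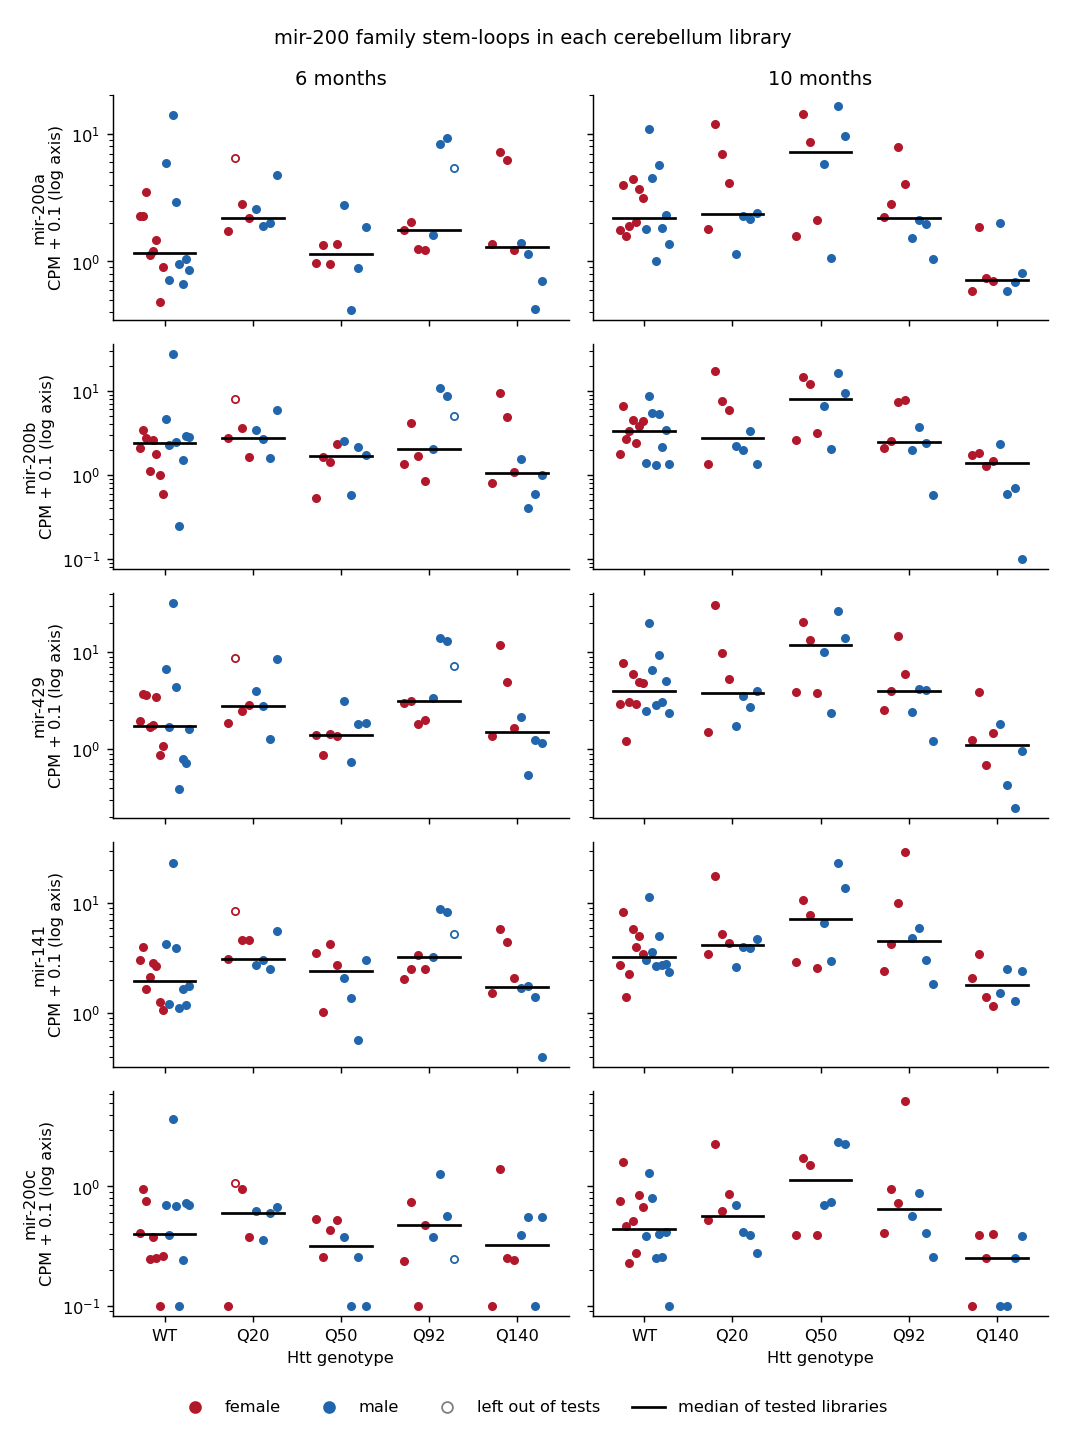
Level of each stem-loop in every library (CPM plus 0.1, log axis), by Htt genotype from WT to Q140, at 6 months (left) and 10 months (right). Points are libraries coloured by sex, open points were left out of the tests and bars are medians. At 10 months the Q140 points lie low for every member, with medians of 0.620 CPM for mir-200a and 1.0 CPM for mir-429, against 2.20 and 3.66 CPM in the controls.

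The members went up and down together. Over the tested libraries of one age (46 at 6 months, 48 at 10 months), Pearson's r of log2(CPM + 0.5) was 0.85 to 0.95 among the 3 stem-loops of chromosome 4 (Spearman's rho 0.74 to 0.94). Between these and mir-141 on chromosome 6, r was 0.74 to 0.84 (rho 0.61 to 0.87), where mir-141 and mir-200a share reads in 16 libraries. The permutation p of each of these relations was at most 2e-05 (adjusted p at most 2e-05 over the 20 pairs and ages, Pearson and Spearman together), where 1e-05 is the smallest that 100000 permutations can give. mir-200c had few counts, and its r was 0.67 to 0.75 with the chromosome 4 members and 0.62 at 6 months and 0.86 at 10 months with its neighbour mir-141 (highest permutation p 0.003, adjusted p 0.003). Without the 2 libraries farthest from the median, r was 0.50 to 0.94 over the 20 relations, so the relation did not rest on those libraries. Within single L tags (a part of the library name that the labels do not define) r was 0.66 to 0.97 among the 4 tested members. It fell to 0.28 for mir-429 with mir-200c in the 6 libraries of tag 2 at 6 months. The libraries of a relation share their depth and genotype groups, and these values are a description of the libraries.

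The share of the family that came from chromosome 6 (mir-141 plus mir-200c) was 31.9% at the median, with a range of 12.1% to 66.2% over the 96 libraries. The highest share belonged to Q92 female replicate 4 at 10 months. That library had 29.1 CPM of mir-141 and 5.10 CPM of mir-200c, the highest of all libraries for both, but 3.95 CPM of mir-200a, 7.66 CPM of mir-200b and 5.85 CPM of mir-429. In 6 of the 96 libraries the chromosome 6 sum exceeded the chromosome 4 sum. Beside Q92 female replicate 4, these were Q140 male replicates 2 (65.2% from chromosome 6) and 4 (62.1%) at 10 months, and at 6 months Q140 male replicate 2 (53.8%) and Q50 female replicates 1 (60.0%) and 3 (56%). Q140 male replicate 3 at 10 months stood at 50.0%, so 3 of the 4 Q140 males of that age were at 50.0% or above. Apart from Q92 female replicate 4, these libraries held 2.68 to 7.96 CPM of the family, against 51.6 CPM in that library. The Q140 libraries of 10 months had 7 to 23 counts of mir-141 and 0 to 14 counts of mir-200b, so their shares rest on few reads. The 4 Q140 males of that age carried L tag 8, and Q140 female replicates 1, 2 and 4 carried L tag 1. Sex and tag were thus hardly separated among them.

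**Figure D2:**
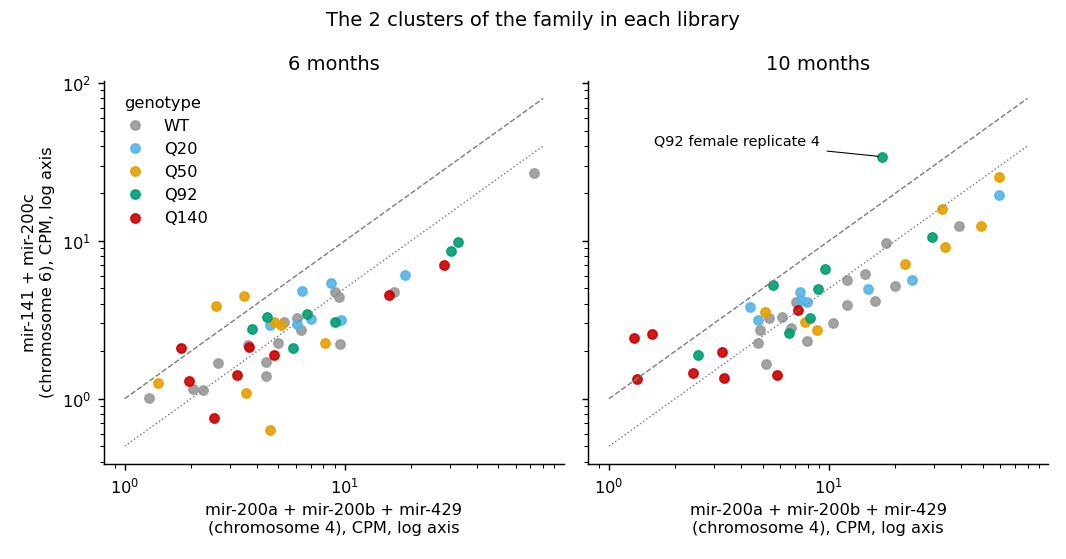
Summed level of the chromosome 6 stem-loops (vertical) against that of the chromosome 4 stem-loops (horizontal), in CPM on log axes, for the tested libraries at 6 months (left) and 10 months (right), coloured by genotype. The dashed line marks equal sums and the dotted line a chromosome 6 sum of 0.5 times the other. Most libraries lie near the dotted line, and 6 stand above the dashed line, of which Q92 female replicate 4 has 34.2 CPM against 17.5 CPM and the other 5 have low sums.

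The comparison of Q140 mice with controls asks whether a long repeat goes with a changed level. At 10 months mir-200a, mir-200b and mir-429, the 3 stem-loops of chromosome 4, fell in Q140 cerebellum relative to controls, with log2 fold changes of -1.80 to -2.23. This makes 3 of the 4 tested members called lower at an adjusted p under 0.05, where 1.61% of the 434 stem-loops were called lower (7, of which these are 3) and 2.3% in either direction. The median log2 fold change of the 4 members was -1.86, beside -0.01 over all stem-loops tested. The 3 called members lie within 1846 bases and varied together between libraries (Pearson's r of 0.85 to 0.95). They are therefore not 3 independent calls.

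mir-429 had 0.149 CPM in the lowest, 1.0 CPM at the median and 3.78 CPM in the highest of 8 Q140 libraries, against 1.10, 3.66 and 30.5 CPM in 24 control libraries. Its log2 fold change was -2.23 (SE 0.58, adjusted p = 0.0336, edgeR). In 4 of the 8 Q140 libraries mir-429 was under the lowest control, and in all 8 it was under the control mean. mir-200a had 0.488 CPM in the lowest, 0.620 CPM at the median and 1.89 CPM in the highest Q140 library, against 0.909, 2.20 and 11.8 CPM in controls. Its log2 fold change was -1.91 (SE 0.53, adjusted p = 0.0407, edgeR), and 6 of 8 Q140 libraries were under the lowest control. mir-200b, which shares its seed with mir-429, had 0 CPM in the lowest, 1.27 CPM at the median and 2.20 CPM in the highest Q140 library, against 1.21, 3.22 and 16.9 CPM in controls. Its log2 fold change was -1.80 (SE 0.49, adjusted p = 0.0407, edgeR). The groups overlapped for each of the 3, since 9 of 24 control libraries lay under the highest Q140 library for mir-200a and mir-200b and 12 did for mir-429. In counts, the Q140 medians were 4.14 for mir-200a, 8.5 for mir-200b and 6.5 for mir-429, against 14, 21.5 and 22.5 in controls. For each of the 3, 2 of 8 Q140 libraries had no more than 3 counts, so these folds rest on few reads.

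Of the chromosome 6 members mir-141 did not pass, and mir-200c was under the low count filter and not in this test. Whether the 2 loci differed in their change was not tested. mir-141 had 1.06 CPM in the lowest, 1.69 CPM at the median and 3.34 CPM in the highest Q140 library, against 1.29, 3.65 and 17.5 CPM in controls, with a log2 fold change of -1.25 (SE 0.47, adjusted p = 0.203, edgeR). All 8 Q140 libraries were under the control median of mir-141, and 2 were under the lowest control. mir-200c had 0 to 2 counts in the 8 Q140 libraries, against 0 to 14 counts in the 24 controls. The mean log2(CPM + 0.5) of mir-200c was lower in Q140 by a difference of -0.59 (permutation p = 0.00797, two-sided, 1 of 30 such tests, not adjusted). All Q140 libraries and 14 of 24 control libraries had no more than 3 counts. A fold for mir-200c is therefore uncertain and is given only for the fit without the low count filter, among the processing settings. The same permutation test of the other members at 10 months, chosen after seeing the data, gave unadjusted p = 0.00019 for mir-429, 0.00032 for mir-200a, 0.00066 for mir-200b and 0.00138 for mir-141. Unlike the edgeR fits, none of these permutation tests has a term for sex or L tag.

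Summed over the family, the Q140 females at 10 months had 5.24, 10.9, 3.87 and 4.68 CPM and the Q140 males had 7.24, 3.74, 2.68 and 4.15 CPM. The controls ran from 6.81 to 78.9 CPM with a median of 12.1 CPM. Thus 6 of 8 Q140 cerebella lay under the lowest control, and the highest Q140 library lay under the control median. Within L tag 8 the sums were 2.68 to 7.24 CPM in 5 Q140 libraries and 7.0 to 78.9 CPM in 10 controls, and within L tag 1 they were 4.68 to 10.9 CPM in 3 Q140 libraries and 6.81 to 51.7 CPM in 14 controls. Fitted within a tag, no member passed the threshold, but the sign stayed negative for all 4. The log2 fold changes were -1.59 (mir-200a), -1.23 (mir-200b), -1.02 (mir-429) and -0.91 (mir-141) in tag 1 and -1.55, -1.79, -2.55 and -0.83 in tag 8, in the same order.

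**Figure D3:**
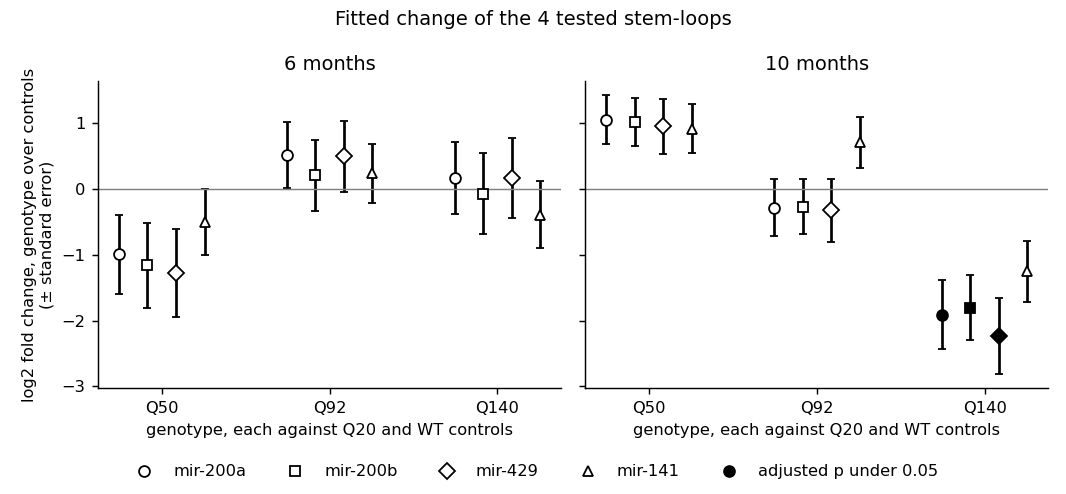
Fitted log2 fold change of the 4 tested stem-loops in Q50, Q92 and Q140 mice over the Q20 and WT controls, at 6 months (left) and 10 months (right). Bars are ± 1 standard error, worked out from the fold change and its test statistic, and filled symbols have an adjusted p under 0.05. Only mir-200a, mir-200b and mir-429 in Q140 at 10 months are filled, at -1.91, -1.80 and -2.23.

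The calls at 10 months stood close to the threshold. With each of the 48 libraries left out in turn, 34 fits called 3 members, 1 called 2, 5 called 1 and 8 called none, and mir-141 was called in 0 of 48. The log2 fold change of mir-429 stayed between -2.73 and -1.91, that of mir-200a between -2.17 and -1.73 and that of mir-200b between -2.06 and -1.59. No member was called without male replicate 2, 3 or 4 or female replicate 1, 3 or 4 of Q140, male replicate 3 of the WT mice of the Q20 line or Q20 female replicate 2, with the adjusted p of mir-429 then at 0.0509 to 0.102. Only mir-429 was called without Q140 female replicate 2, Q20 female replicate 3, Q20 male replicate 3, or female replicate 2 or male replicate 2 of the WT mice of the Q20 line. Without Q20 male replicate 4 mir-200a was not called (adjusted p = 0.0502, edgeR). The 3 members were also not called against the WT controls alone (adjusted p of 0.0747 to 0.111), without the low count filter (0.0727 each) or without the libraries of Z.k under -3 (0.105 each), where the log2 fold changes were -1.63 to -2.34.

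**Figure D4:**
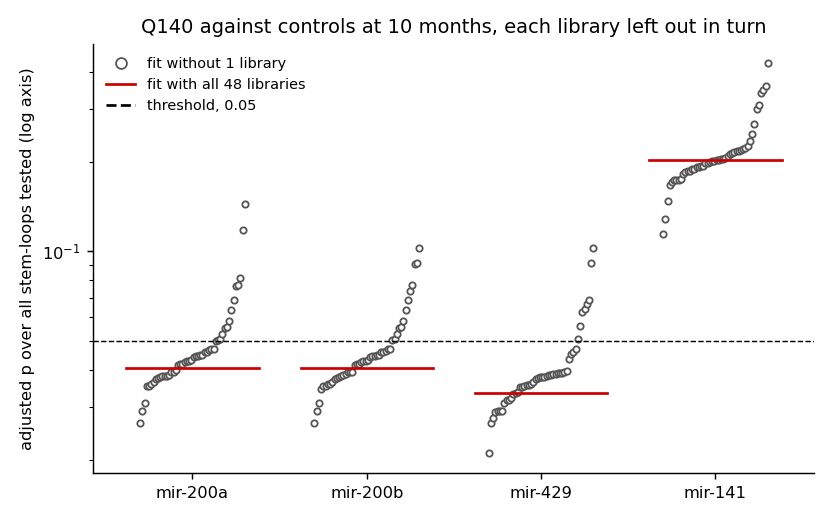
Adjusted p of the 4 tested stem-loops for Q140 against controls at 10 months (log axis) with each library left out in turn (open circles), beside the fit with all 48 libraries (red line) and the threshold of 0.05 (dashed). The 3 chromosome 4 stem-loops lie on both sides of the threshold, with highest values of 0.102 to 0.145, and mir-141 stays above it.

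At 6 months no member differed beyond the error in Q140. The fitted log2 fold changes were 0.17 (SE 0.55) for mir-200a, -0.07 (SE 0.62) for mir-200b, 0.16 (SE 0.61) for mir-429 and -0.39 (SE 0.51) for mir-141, and 0 of 4 members passed in edgeR (lowest adjusted p 0.728, 0 of 4 under an unadjusted p of 0.05, 0 of 4 in DESeq2), where 2.3% of all stem-loops were called. The family sum in Q140 was 4.66, 35.4, 20.4 and 5.81 CPM in females and 6.68, 3.89, 3.25 and 3.30 CPM in males, against 2.30 to 99.4 CPM with a median of 9.08 CPM in 23 controls. Female replicates 2 and 3 were high, and the other 6 lay under the control median. Without female replicate 2 the log2 fold changes were -0.50, -1.08, -0.96 and -0.95, with adjusted p of 0.347 to 0.709 (edgeR), and without female replicate 3 the value was -0.22 for mir-200a and -0.10 for mir-429, so that each of these 2 libraries alone turned the sign for mir-200a and mir-429. The Q140 effect was higher in females than in males at 6 months by 2.33 to 3.77 on the log2 scale, but the interaction passed for 0 of 4 members (lowest adjusted p 0.246, edgeR, with 4 of 4 under an unadjusted p of 0.05, and 0% of all stem-loops called).

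The Q140 effect was lower at 10 months than at 6 months by -2.37 (SE 0.85) for mir-429, -2.06 (SE 0.78) for mir-200a, -1.71 (SE 0.79) for mir-200b and -0.85 (SE 0.69) for mir-141 on the log2 scale. The interaction passed for 0 of 4 members (lowest adjusted p 0.323, edgeR, 3 of 4 under an unadjusted p of 0.05, and 0% of all stem-loops called), so a difference between the ages is not shown. Over both ages the mean log2 fold changes in Q140 were -0.82 (SE 0.35) for mir-141, -0.87 (SE 0.38) for mir-200a, -0.94 (SE 0.40) for mir-200b and -1.04 (SE 0.42) for mir-429. In edgeR 0 of 4 members passed (adjusted p of 0.121 to 0.169, 4 of 4 under an unadjusted p of 0.05), where 5.07% of all stem-loops were called. DESeq2 called 1 of 4, limma on log2(FPKM + 1) called 2 of 4, and edgeR called 3 of 4 without Q140 female replicate 2 of 6 months.

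In Q50 mice no member passed at 10 months, and the fitted values were positive. The family sum was 10.9, 61.4, 42.8 and 11.5 CPM in Q50 females and 29.4, 8.66, 84.4 and 48.6 CPM in Q50 males at 10 months. The median of 36.1 CPM stood beside a control median of 12.1 CPM, with 5 of 8 Q50 libraries over the control mean of 18.5 CPM, 3 under the control median and 1 over the highest control. The fitted log2 fold changes were 1.06 (SE 0.37) for mir-200a, 1.02 (SE 0.36) for mir-200b, 0.96 (SE 0.42) for mir-429 and 0.91 (SE 0.37) for mir-141. None passed in edgeR (adjusted p of 0.112 to 0.232, 4 of 4 under an unadjusted p of 0.05, 0 of 4 in DESeq2), where 3.69% of all stem-loops were called. For mir-200c the permutation p was 0.016 (two-sided, not adjusted), with 2 to 15 counts in Q50 and 0 to 14 counts in controls. Without Q50 male replicate 3 the 4 values were 0.47 to 0.68, with adjusted p of 0.559 to 0.684 (edgeR). Some members passed when 1 other library was left out, namely 3 without Q20 female replicate 2, 2 without Q50 female replicate 1, 2 without Q50 male replicate 2 and 1 without male replicate 2 of the WT mice of the Q20 line.

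Against their own WT littermates at 10 months, the Q50 mice had log2 fold changes of 1.27 (mir-200a), 1.26 (mir-200b), 1.29 (mir-429) and 1.21 (mir-141), with SE of 0.49 to 0.56. In edgeR 0 of 4 passed (adjusted p of 0.373 to 0.385, 4 of 4 under an unadjusted p of 0.05, 0 of 4 in DESeq2), where 0% of all stem-loops were called. In limma on log2(FPKM + 1), 0 of 4 were under an unadjusted p of 0.05, against 4 of 4 in DESeq2. At 6 months the Q50 family sums were 2.68 to 10.4 CPM with a median of 7.16 CPM, against a control median of 9.08 CPM. The log2 fold changes were -0.99 (SE 0.60), -1.16 (SE 0.64), -1.27 (SE 0.67) and -0.50 (SE 0.50) for mir-200a, mir-200b, mir-429 and mir-141, and 0 of 4 passed (lowest adjusted p 0.895, edgeR, 0 of 4 under an unadjusted p of 0.05, 0 of 4 in DESeq2), where 0% of all stem-loops were called. The WT controls of the 2 lines had, at 6 months, a median family sum of 5.22 CPM in the Q50 line and 12.8 CPM in the Q20 line. Against their own WT littermates at 6 months, the Q50 mice had log2 fold changes of 0.44 (SE 0.69) for mir-200a, -0.16 (SE 0.73) for mir-200b, 0.14 (SE 0.75) for mir-429 and 0.54 (SE 0.57) for mir-141, and 0 of 4 passed (adjusted p = 0.986 for each, edgeR, 0 of 4 under an unadjusted p of 0.05, 0 of 4 in DESeq2), where 0% of all stem-loops were called. The sign thus depended on the controls for mir-200a, mir-429 and mir-141. Against the pooled controls, the Q50 effect was higher at 10 months than at 6 months by 2.05, 2.19, 2.24 and 1.42 on the log2 scale, again with 0 of 4 interactions past the threshold (adjusted p of 0.133 to 0.246, edgeR, 4 of 4 under an unadjusted p of 0.05, and 0% of all stem-loops called). Against littermates the values at the 2 ages stood closer, and their difference was not tested.

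In Q92 mice the family sum at 10 months ran from 4.42 to 51.6 CPM with a median of 12.7 CPM, against a median of 12.1 CPM in controls. The chromosome 4 members had log2 fold changes of -0.28 (mir-200a), -0.27 (mir-200b) and -0.33 (mir-429), and mir-141 had 0.71 (SE 0.39, adjusted p = 0.485, edgeR). Without female replicate 4, the library with the highest mir-141, the value of mir-141 was 0.05. At 6 months the log2 fold changes were 0.21 to 0.52. At each age 0 of 4 members passed in edgeR, 0 of 4 were under an unadjusted p of 0.05, and 0 of 4 passed in DESeq2, where 0% of all stem-loops were called.

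CAG length as a number asks whether the level follows the repeat. At 10 months the slopes per 100 CAG were -1.19 (SE 0.46) for mir-429, -1.01 (SE 0.42) for mir-200a, -0.98 (SE 0.40) for mir-200b and -0.32 (SE 0.40) for mir-141 on the log2 scale. None passed (lowest adjusted p 0.267, edgeR, 3 of 4 under an unadjusted p of 0.05, 0 of 4 in DESeq2), where 0.461% of all stem-loops were called. The median family sums by repeat length at 10 months were 12.3 CPM in WT, 12.1 CPM in Q20, 36.1 CPM in Q50, 12.7 CPM in Q92 and 4.42 CPM in Q140, which is not a steady trend. At 6 months and over both ages 0 of 4 members passed (lowest adjusted p 0.777 and 0.425, edgeR, 0 of 4 under an unadjusted p of 0.05 in both, 0 of 4 in DESeq2 in both), where 2.76% and 3% of all stem-loops were called.

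The remaining comparisons concern the background against which these values stand. Q20 mice and their WT littermates gave 0 of 4 members past the threshold at both ages (lowest adjusted p 0.591 at 6 months and 0.99 at 10 months, edgeR, 0 of 4 under an unadjusted p of 0.05, 0 of 4 in DESeq2), where 0% of all stem-loops were called. Females and males differed in 0 of 4 members at 6 months (lowest adjusted p 0.5) and at 10 months (0.249, edgeR, 0 of 4 under an unadjusted p of 0.05 and 0 of 4 called in DESeq2 at both ages), where 2.53% and 7.6% of all stem-loops were called. Between ages, mir-141 was higher at 10 months than at 6 months by a log2 fold change of 0.67 (SE 0.22, adjusted p = 0.0123, edgeR), 1 of 4 members where 34.6% of all stem-loops were called. It did not pass in the WT and Q20 libraries alone (0.47, adjusted p = 0.273, edgeR). mir-429 had 0.70 (SE 0.29, adjusted p = 0.0539, edgeR), mir-200a 0.52 and mir-200b 0.40. No tag holds libraries of both ages, so L tag and age cannot be told apart.

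No tested stem-loop outside the family followed it closely. By the mean of Spearman's rho with the family sum over 46 libraries at 6 months and 48 at 10 months, the most alike were MI0004131 (0.42 and 0.48 by age), MI0000408 (0.21 and 0.52), MI0000225 (0.29 and 0.43), MI0014027 (0.39 and 0.31) and MI0010750 (0.21 and 0.46). They are the highest of the 430 others and are given as a description, since the files do not pair these IDs with names.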

How the data were processed

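Cerebellar small RNA of 96 mice was sequenced. Per the study's methods, reads were clipped, aligned to mm10 with STAR and counted with HTSeq. The submitters' processing notes name CASAVA 1.8.2. The authors deposited estimated counts, not normalized, and FPKM values, which are the counts scaled by library total and stem-loop length. Which program split shared reads is not stated in the paper or labels.

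After rounding to whole numbers, the quasi-likelihood test of edgeR 4.0.16 was applied (R 4.3.3, TMM, Benjamini-Hochberg over the 434 stem-loops tested, threshold 0.05), each age with genotype, sex and L tag as terms. Controls were Q20 and WT. The standard error (SE) of an edgeR log2 fold change is its absolute value divided by the square root of the F statistic of its test. Signed z values were added to combine the ages. CAG length was set to 7 for WT. DESeq2 1.42.0 and limma 3.58.1 on log2(FPKM + 1) were alternatives. CPM tests of mir-200c and relations used 100000 permutations on log2(CPM + 0.5), with no term for sex or L tag. Scripts were tested on simulated data. Alternatives were other normalizations, filters, libraries, covariates and controls, and each library left out in turn.

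The smallest library allows up to 0.552 CPM (3 counts) where a count is 0, which covers counting error only. Reads carried no molecular identifiers. The study describes 8 animals per genotype and age, so a library stands for an animal.

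All 5 members were named, and the 5 other tested stem-loops with the highest mean rho. The members, lists and tests were chosen with earlier results of these data known. Lists of cell type markers were written by microRNA name and could not be matched to IDs, so the tissue label and relations with marker lists were not examined. Same-numbered replicates of a sex hardly deviated together, with a mean r of -0.02 at 6 months and 0.07 at 10 months. For other numbers the mean r was 0.006 and -0.02.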

Additional observations from a re-analysis of the deposited data

Results flagged for a closer look

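In each genotype and age group of 7 or 8 libraries, a library was singled out where its gap to the nearest other exceeded Dixon's 95% limit. Chance alone singles out about 1 in 20 groups, and CPM values of this family are skewed, which the limit does not allow for. Of 60 pairs of member and group, 21 were singled out, in 9 libraries, each time as the highest value.

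At 6 months male replicate 3 of the WT mice of the Q20 line stood out for all 5 members, with 13.8 CPM of mir-200a, 27.0 CPM of mir-200b, 31.8 CPM of mir-429, 23.2 CPM of mir-141 and 3.60 CPM of mir-200c, where the next library of its group had 5.81, 4.47, 6.55, 4.17 and 0.861 CPM. Q20 male replicate 4 stood out at 6 months with 4.69 CPM of mir-200a and 8.38 CPM of mir-429. Q140 female replicate 2 stood out at 6 months with 11.9 CPM of mir-429 and 1.30 CPM of mir-200c. Female replicate 2 of the WT mice of the Q50 line had 3.33 CPM of mir-429 at 6 months.

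At 10 months Q20 female replicate 2 stood out with 16.9 CPM of mir-200b, 30.5 CPM of mir-429, 17.5 CPM of mir-141 and 2.16 CPM of mir-200c. Male replicate 2 of the WT mice of the Q20 line had 10.7 CPM of mir-200a and 19.8 CPM of mir-429. Q92 female replicate 3 had 7.71 CPM of mir-200a and 14.6 CPM of mir-429. Q92 female replicate 4 had 29.1 CPM of mir-141 and 5.10 CPM of mir-200c, while its mir-200a, mir-200b and mir-429 were not singled out. Q140 female replicate 2 had 3.78 CPM of mir-429, still under the control mean of 5.92 CPM. The source of the high values was not tested.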

How the results depend on the processing

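For Q140 against controls at 10 months the 3 calls remained with RLE factors, library totals alone, DESeq2 (adjusted p of 0.00102 to 0.00231), only the groups compared, L tag left out, robust dispersion (chosen after seeing the data) and limma on log2(FPKM + 1) or log2(FPKM + 0.1), and DESeq2 with outlying values replaced called mir-141 too (4 members). They fell to 0 without the low count filter, without the libraries of Z.k under -3, with WT alone as controls and within L tag 1 or 8, and to 0 to 3 with 1 library left out. A mean count of at least 50 left no member to test. Keeping all libraries repeats the main fit at 10 months and is no check of it, since both libraries left out were of 6 months. With the replicate block 3 members were called among 6 stem-loops in all, against 10 without it, and the labels do not state that the numbers pair the animals. The stem-loops called in all ran from 0 (within L tag 1 or 8) to 11, with 1 where the low count filter or libraries of Z.k under -3 were left out and 4 against WT alone. Over both ages the Q140 count of 0 became 1 (DESeq2), 3 (DESeq2 with outlying values replaced), 2 (limma on log2(FPKM + 1)) and 3 (limma on log2(FPKM + 0.1)), and 0 to 3 with 1 library left out. For Q50 at 10 months the count was 0 to 3 with 1 library left out. For mir-200c at 10 months, edgeR without the filter gave a log2 fold change of -1.70 for Q140 (adjusted p = 0.402). For Q50 it gave 1.07 (adjusted p = 0.328, edgeR). Neither passed, and both rest on few counts.

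Between ages the count of 1 became 2 with DESeq2, limma or the replicate block and 0 in WT and Q20 alone, and was 1 to 4 over the libraries left out. mir-141 was called in all 94 of these fits. Beside it mir-429 passed in 28, those without Q140 female replicates 1 and 3 and male replicates 2, 3 and 4, Q20 female replicate 1 and male replicates 1 to 4, Q92 female replicates 1 and 2 and male replicates 1 to 4, or female replicates 1, 3 and 4 and male replicates 1 and 4 of the WT mice of the Q20 line, all at 10 months, or at 6 months without Q140 female replicates 2 and 3, Q20 male replicate 4, Q92 male replicates 2 and 3, female replicate 2 of the WT mice of the Q50 line, or male replicate 3 of the WT mice of the Q20 line, where all 4 passed.

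Signs turned for values that had not passed the threshold. In Q140 at 6 months mir-200a was -0.17 and -0.19 with limma (FPKM + 1, + 0.1), -0.039 within L tag 2, -1.43 within L tag 3 and -0.50 to 0.45 with 1 library left out. mir-200b was 0.017 with DESeq2, 0.013 with replaced values, 2.12 within L tag 4 and -1.08 to 0.24 with 1 library left out. mir-429 was -0.017 without L tag, -0.075 with the replicate block, -0.21 and -0.22 with limma, -0.65 within L tag 2, -1.75 within L tag 3 and -0.96 to 0.49 with 1 library left out. mir-141 was 0.90 within L tag 4. Tag 4 held 1 Q140 library of 6 months, female replicate 2, beside 8 controls. The values of mir-200b and mir-141 within that tag thus rest on this library. Tags 2 and 3 held 3 and 4 Q140 libraries. Within L tag 3, which held 2 Q50 libraries, mir-141 was 0.019 in Q50 at 6 months, and its CAG slope at 10 months was 0.19 within L tag 8. In Q92 at 10 months, within L tag 8, mir-200a, mir-200b and mir-429 were 0.042, 0.10 and 0.068, mir-141 was -0.21 within L tag 1, and mir-429 was 0.0053 with WT alone and -0.77 to 0.077 with 1 library left out. In Q92 at 6 months, within L tag 3, mir-200a, mir-200b, mir-429 and mir-141 were -0.14, -0.47, -0.20 and -0.33, and with 1 library left out mir-200b was -0.24 to 0.86 and mir-141 -0.17 to 0.78. The causes were not tested. Low counts per library limit all of these values, and the marker lists could not be run.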
